A study of Mus musculus with 8 samples.

Results

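The genes that attach Atg8 proteins to membranes in autophagy were followed in mouse brain after methanol. They were 10 genes: the activating enzyme Atg7, the conjugating enzymes Atg3 and Atg10, the ligase genes Atg5, Atg12 and Atg16l1, the Atg8 proteins Map1lc3a, Map1lc3b and Gabarapl1, and the protease Atg4b. The family was selected on the readout, because Atg3 was low in the methanol mice of this same contrast, and its members were then taken by gene symbol whatever their own values. These 10 genes had 15 of the 25697 probes on the array, which name 16593 genes in all. Because this contrast chose them, the members' changes are given as a description and no p-value is given for them. Where a member is said to lie past the threshold of the fit across all probes, that is a count to set beside the whole array and not evidence for its change.

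Brain RNA was hybridised to Illumina MouseRef-8 arrays, on which beads carry the probes, and 4 methanol arrays were compared with 4 saline arrays. The labels give methanol at 120 mg/kg in 350 µL, 350 µL of normal saline for the controls and 2 h of treatment in groups of 4 mice, without naming the route or saying whether each array holds 1 animal. The methods describe male BALB/c mice, an inbred strain, which breathed vapor from cotton wool wetted with methanol or, for the controls, water, and RNA from homogenates of whole brain. Labels and methods therefore differ in the control and the exposure, and they also differ in the time before the brains were taken and in the number of mice per group, and the groups are called methanol and saline here.

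Autophagy encloses cytoplasm in a double membrane, the autophagosome, and delivers it to lysosomes. An Atg8 protein is trimmed by an Atg4 protease, activated by Atg7, passed to Atg3 and joined by it to the lipid phosphatidylethanolamine, so that it stays on the growing membrane. A parallel chain joins Atg12 to Atg5 through Atg7 and Atg10, and this conjugate, bound to Atg16l1, directs Atg3 to the membrane. Neurons lacking Atg5 or Atg7 are known to accumulate protein aggregates in mice.

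A promoter sequence from the RefSeq table was used for 7 members (build GRCm38.p6, 250 bases before to 50 after a start listed for the gene). Of these, Atg3, Atg5 and Atg7 held the palindromic E-box CACGTG. It is the core of the site read by TFEB, a transcription factor of autophagy and lysosome genes. Whether a listed start is the main start of its gene was not examined. The 3 sequences are shown because one of these genes was low in the methanol group while the other two were not. They run 5′ to 3′ on the plus strand with each E-box in capitals.
Atg3, chr16:45158579-45158878: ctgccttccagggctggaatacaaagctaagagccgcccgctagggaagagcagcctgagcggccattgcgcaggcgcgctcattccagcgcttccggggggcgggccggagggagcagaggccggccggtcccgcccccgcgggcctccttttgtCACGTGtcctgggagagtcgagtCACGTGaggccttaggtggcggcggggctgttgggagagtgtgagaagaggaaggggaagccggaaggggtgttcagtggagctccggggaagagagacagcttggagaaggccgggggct
Atg5, chr10:44268089-44268388: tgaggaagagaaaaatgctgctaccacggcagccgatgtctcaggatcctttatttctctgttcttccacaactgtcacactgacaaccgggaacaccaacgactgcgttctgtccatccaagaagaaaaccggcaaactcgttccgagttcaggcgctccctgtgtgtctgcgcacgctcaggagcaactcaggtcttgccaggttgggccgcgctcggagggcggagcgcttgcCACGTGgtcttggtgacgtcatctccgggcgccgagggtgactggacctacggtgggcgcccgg
Atg7, chr6:114670846-114671145: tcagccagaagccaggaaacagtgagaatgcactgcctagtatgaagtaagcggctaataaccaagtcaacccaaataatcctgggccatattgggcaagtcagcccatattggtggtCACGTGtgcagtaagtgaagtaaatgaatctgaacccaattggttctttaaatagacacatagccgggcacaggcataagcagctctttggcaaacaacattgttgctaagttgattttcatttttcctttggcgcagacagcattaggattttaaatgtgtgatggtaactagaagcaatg
The E-boxes of Atg3 begin at offsets -94 and -71 from the listed start base, that of Atg5 at -14 and that of Atg7 at -132. The E-box was in 3 of the 7 member promoters and in 2349 of all 32851 promoters of this length (7.15%). The forkhead core GTAAACA, searched on both strands, was in 0 of the 7 and in 3.65% of all promoters. These matches are letters in a window and say nothing of binding. No probe of Tfeb was detected on any array, so Tfeb itself was not tested.

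The arrays resembled each other closely. Correlations of log2 intensity were 0.981 to 0.989 within groups and 0.973 to 0.984 between them, and 11291 to 12366 probes were detected per methanol array against 11855 to 12199 per saline array (detection p under 0.05). Xist, the RNA of X inactivation that male cells largely lack, was detected on 8 of 8 arrays (mean log2 intensity 8.85 in methanol, 8.93 in saline), and of the Y-linked genes, Eif2s3y and Kdm5d were detected on 0 of 8 arrays and Uty, near the edge of detection, on 3 methanol and 1 saline arrays (mean log2 intensity 5.51 and 5.28). The Xist signal goes against the stated male sex in both groups, and the sex of the mice was not settled here. Of the marker lists, read from the brightest probe of each gene, 4 of 5 tested red blood cell genes fell (Hba-a1, Hbb-b2, Hbb-bt and the heme enzyme Alas2, changes -2.01 to -1.46, limma adjusted p at most 7.28e-05), with a summed intensity of 5240 to 6410 on methanol arrays and 17100 to 22500 on saline arrays. Of 5 tested genes of choroid plexus and meninges, 1 fell, Kl, by 1.17 (limma adjusted p = 0.0420). The summed intensity of the list was 2320 to 3280 on methanol arrays against 3930 to 26400 on saline arrays. On the log2 scale Ttr of this list read 9.21, 8.60, 9.66 and 8.39 in methanol. In saline Ttr read 10.58, 11.49, 14.39 and 7.52, so its groups overlapped and saline replicate 3 was far the highest. Of 6 tested microglia genes, 1 fell, the receptor P2ry12, by 0.35 (adjusted p = 0.0368), while the other 5 had changes that did not pass and were not all in that direction, and the summed intensities overlapped (1510 to 1980 against 1970 to 2170). No gene was called among 4 of neurons (sum 23800 to 25100 in methanol, 22100 to 24800 in saline), 6 of astrocytes (13400 to 14800, 12600 to 14600), 5 of oligodendrocytes (19400 to 27500, 13200 to 20200) and 4 of endothelium (1060 to 1290, 1160 to 1520). A dimmer probe of the oligodendrocyte gene Mobp did rise, by 0.71 (limma adjusted p = 0.0435), while the other Mobp probes, at 0.20 and 0.23, did not pass. In bulk tissue, fewer cells of a type and less RNA per cell cannot be told apart.

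Atg3 was the member that stood low after methanol, by about 2-fold, on 1 of its 3 probes. Atg3 transfers Atg8 proteins to the lipid. In the un-normalized table its probe 2 (ILMN_2651781) read 380.2, 269, 326.2 and 338.8 on methanol arrays 1 to 4, and 521.4, 560.1, 579.2 and 535.2 on saline arrays 1 to 4. The lowest saline array thus lay above the highest methanol array before any normalization. After background correction and quantile normalization its log2 intensity was 7.55, 6.73, 7.61 and 7.91 in methanol, and 8.62, 8.62, 8.76 and 8.59 in saline. The groups did not overlap, and the methanol values were more spread, with replicate 2 the lowest (7.45 ± 0.503 in methanol, 8.65 ± 0.0748 in saline, SD, n = 4 each). The log2 change, methanol minus saline, was -1.20 (SE 0.18), or 2.29-fold brighter in saline. The size depends on the background subtracted, since the table as normalized by the authors, which keeps the background in, gave -0.75. Leaving out methanol replicate 2 gave -0.96 and leaving out methanol replicate 4 gave -1.35, the extremes over single arrays left out. The 4 red blood cell genes, Kl and P2ry12 given above were also lower in methanol, and their part in the Atg3 value was not tested.

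The other Atg3 probes gave no second measurement. Probe 1 (ILMN_2595188) read 159.4, 177.2, 174.1 and 162.3 in methanol and 157.7, 167.8, 158.7 and 150 in saline in the un-normalized table. Probe 3 (ILMN_2805580) read 177.7, 194.6, 184.8 and 174.2 in methanol and 173.5, 177.1, 177.2 and 180.7 in saline. Neither was detected on any of the 8 arrays, with detection p from 0.24 to 0.75 for probe 1 and from 0.078 to 0.42 for probe 3, so neither was tested. On the log2 scale probe 1 lay at 4.76 to 5.07 in methanol and 4.64 to 4.87 in saline, and probe 3 at 5.10 to 5.36 and 4.88 to 5.24, with the groups overlapping for both. The low Atg3 value therefore rests on probe 2 alone. All 3 probes are assigned to the same transcript record, and where they lie on it was not analysed here.

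**Figure D1:**
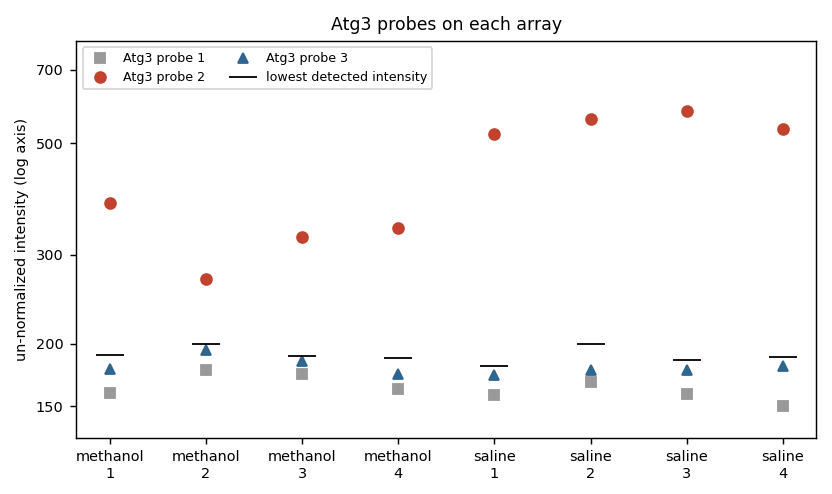
Un-normalized intensity (log axis) of the 3 Atg3 probes on each of the 8 arrays, with a dash for the lowest intensity that counted as detected on that array. Probe 2 lies at 269 to 380.2 on methanol arrays and 521.4 to 579.2 on saline arrays, while probes 1 and 3 lie below the dash on all 8.

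The genes whose pattern over the 8 arrays was most like that of Atg3 probe 2 were Izumo4, Exoc7, Nrsn2, Depp1 and Ctu1. Likeness was the root mean square distance of log2 intensities after centring each probe on its own mean. The distances were 0.226, 0.236, 0.237, 0.241 and 0.248, where the root mean square of Atg3's own centred profile was 0.674. Exoc7 encodes a subunit of the exocyst, a vesicle tethering complex, Nrsn2 a vesicle membrane protein of neurons and Ctu1 a tRNA thiolation enzyme. All 5 were lower in methanol, by changes of -1.01, -1.18, -1.09, -1.03 and -0.74, which the choice for likeness to Atg3 fixes. In each of them methanol replicate 2 was the lowest array, as for Atg3, which the same choice favours. Exoc7 and Ctu1 were detected on 3 methanol arrays. Their values on replicate 2, 5.38 and 5.05, lay below the lowest detected log2 intensity of that array (5.44).

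Atg7, the activating enzyme shared by both chains, was dim but detected on all 8 arrays. Its log2 intensity was 6.05, 6.05, 6.16 and 6.17 in methanol, and 6.02, 5.59, 6.05 and 5.64 in saline. Saline replicates 2 and 4 were low and the groups touched, with a change of 0.28 (SE 0.15), the opposite sign to Atg3.

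Atg10, which passes Atg12 on to Atg5, had 2 probes. Probe 1 (ILMN_1222865) read 6.35, 5.95, 5.78 and 6.13 in methanol and 6.21, 6.15, 5.97 and 5.98 in saline, a change of -0.02 (SE 0.15). Probe 2 (ILMN_2667100) read 8.20, 8.04, 8.22 and 8.23 in methanol and 8.15, 8.26, 8.19 and 8.46 in saline, a change of -0.09 (SE 0.09). The groups overlapped for both probes of this conjugating enzyme, and the means differed by no more than the SE.

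The means of the ligase genes differed between the groups by at most 0.21 on the log2 scale. Atg12, the ubiquitin-like protein that becomes joined to Atg5, read 9.83, 9.94, 10.12 and 9.94 in methanol and 9.88, 10.05, 9.88 and 10.01 in saline. Its means of 9.96 and 9.95 gave a change of 0.00 (SE 0.08), the smallest of the 12 tested probes. Atg5, the acceptor of Atg12, had 2 probes detected on every array. Probe 1 (ILMN_2998135) read 8.64, 8.45, 8.52 and 8.37 in methanol and 8.37, 8.32, 8.32 and 8.54 in saline, a change of 0.11 (SE 0.09). Probe 2 (ILMN_2998139) read 8.85, 8.79, 8.75 and 8.96 in methanol and 8.80, 8.90, 8.75 and 8.83 in saline, a change of 0.02 (SE 0.08). The groups overlapped for Atg12 and for both Atg5 probes. Atg16l1, which carries the conjugate to the membrane, read 9.02, 9.33, 9.15 and 8.93 in methanol and 8.93, 9.08, 8.71 and 8.89 in saline. Methanol replicates 2 and 3 lay above every saline array but the groups overlapped, with a change of 0.21 (SE 0.10).

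Among the Atg8 proteins, which Atg3 joins to the lipid, the 2 probes of Map1lc3a had higher means after methanol. Probe 2 (ILMN_2832682) read 8.62, 8.40, 8.47 and 8.98 in methanol and 8.31, 8.37, 8.32 and 8.24 in saline. Its groups did not overlap, though methanol replicate 2 was nearly level with saline replicate 2, and the change was 0.31 (SE 0.12), or 1.24-fold. Probe 1 (ILMN_2686183) read 7.37, 7.23, 7.45 and 7.53 in methanol and 7.28, 7.11, 6.87 and 7.37 in saline, a change of 0.24 (SE 0.12) with the groups overlapping. Map1lc3b, the LC3 form most used as an autophagosome marker, read 9.29, 9.37, 9.49 and 9.28 in methanol and 9.25, 9.42, 9.26 and 9.06 in saline, a change of 0.11 (SE 0.09). Gabarapl1 of the GABARAP subfamily read 11.53, 11.42, 11.41 and 11.73 in methanol and 11.71, 11.52, 11.65 and 11.49 in saline, a change of -0.07 (SE 0.09). Both of these genes had overlapping groups.

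Atg4b, the protease that trims Atg8 proteins and releases them from the lipid, was at the edge of detection. It was detected on methanol array 1 and on saline arrays 2 and 4, and was not tested. Its log2 intensity was 5.39, 5.29, 5.01 and 5.42 in methanol and 5.33, 5.53, 5.05 and 5.53 in saline, with the groups overlapping.

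**Figure D2:**
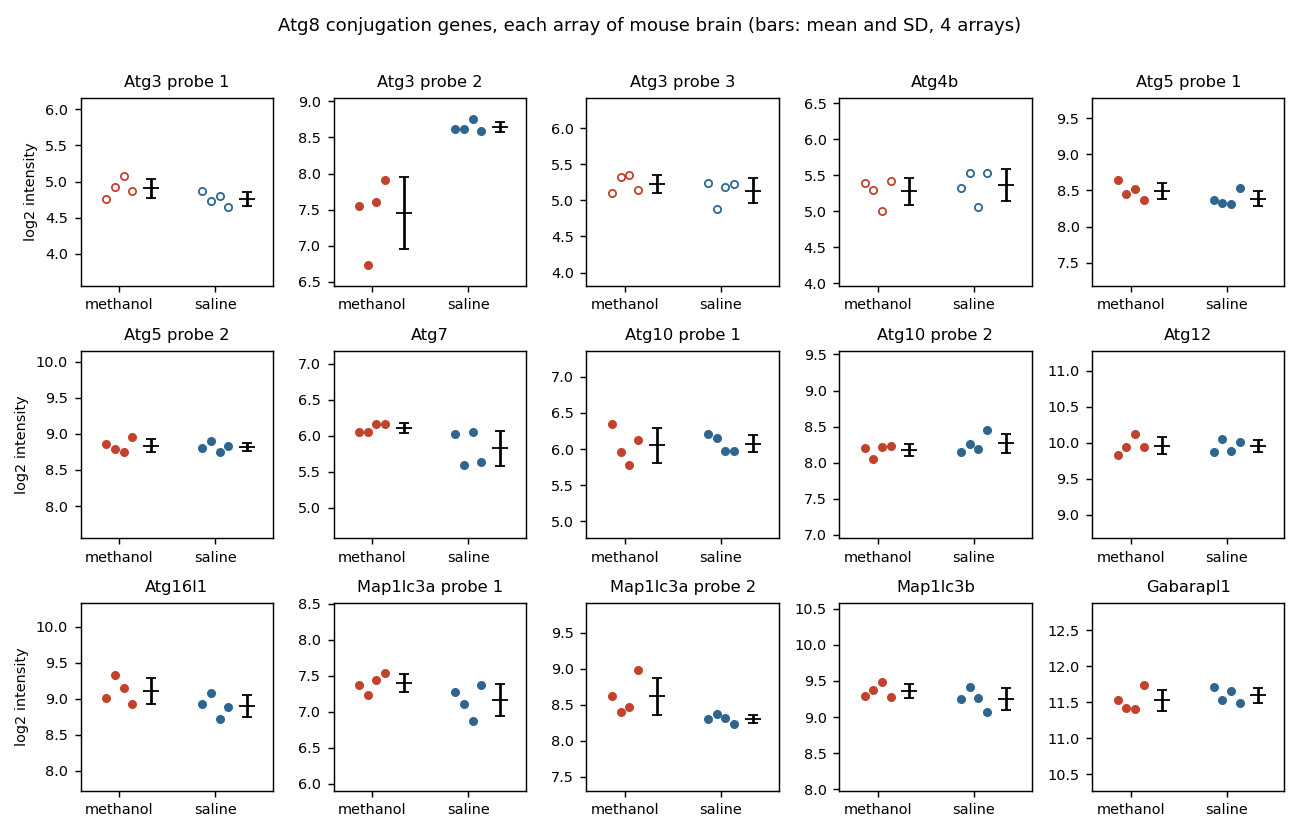
Log2 intensity of the 15 probes of the 10 genes on each array, methanol in red and saline in blue, with the mean and SD of 4 arrays as a bar and open points for the 3 probes not tested; every panel spans the same range of log2 units. Atg3 probe 2 has the widest gap between the groups, and Map1lc3a probe 2 is the other panel in which tested groups do not overlap.

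Over the family, 1 of the 12 tested probes passed the threshold of limma's fit across all probes (8.33%), Atg3 probe 2, which was lower. The background of the same fit was 669 of 11938 probes (5.60%), with 297 lower (2.49%) and 372 higher. Groups without overlap were found for 2 of the 12 probes (16.7%) against 12.4% of all probes tested. Nothing is read from these shares, since the contrast chose the family. The other 11 tested probes, of 8 genes, had changes from -0.09 to 0.31 (median 0.11, SE 0.08 to 0.15), 8 of them with a higher and 3 with a lower mean in methanol, and none was past 1.24-fold. The median absolute log2 change of the 12 probes was 0.107, against 0.133 over all probes tested. Their median spread was no wider than that of the array as a whole, with a median SD of 0.124 in methanol and 0.113 in saline, against 0.162 and 0.149. Single members were wider, Atg3 probe 2 most, with an SD of 0.503 in methanol.

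**Figure D3:**
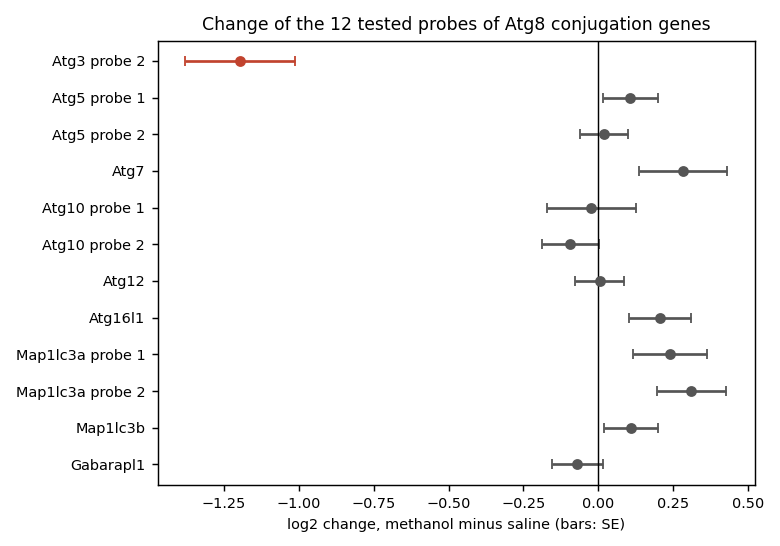
Log2 change, methanol minus saline, of the 12 tested probes, with SE bars from limma; red marks the probe past the threshold. Atg3 probe 2 lies at -1.20 and the other 11 between -0.09 and 0.31.

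The rest of the autophagy pathway was read from lists of 61 genes, of which 54 had a probe and 44 were tested, each by its brightest probe. After methanol 3 of them rose (6.82%), Gabarapl2, Uvrag and Vmp1, 0 fell and 41 did not pass. Over all 8528 genes tested, 290 rose (3.40%) and 215 fell (2.52%). The median log2 change of the 44 genes was 0.0455 and that of all genes 0.00368.

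Gabarapl2, also called GATE-16, is an Atg8 protein outside the 10 members. It read 8.16, 8.03, 8.07 and 8.03 in methanol and 7.67, 7.44, 7.72 and 7.66 in saline, with every methanol array above every saline array. It rose by 0.45 (SE 0.09, limma adjusted p = 0.0126). Its second probe, detected on 2 methanol and 4 saline arrays, did not pass (-0.08, adjusted p = 0.876). With median scaling in place of quantile normalization the call was lost (0.43, adjusted p = 0.122). The other 1 tested gene of the Atg8 conjugation list, Gabarap, changed by -0.05 (SE 0.09, adjusted p = 0.811), and 4 of its 6 genes were not tested.

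Uvrag, a partner of Becn1 in the lipid kinase complex, read 8.61, 8.71, 8.59 and 8.81 in methanol and 8.30, 8.44, 8.07 and 8.33 in saline, with no overlap. It rose by 0.39 (SE 0.10, limma adjusted p = 0.0288). The call was lost with median scaling, without the variance trend and without methanol replicate 1, 2 or 4 or saline replicate 3 or 4 (0.32 to 0.42, adjusted p 0.0501 to 0.131). Of 5 tested genes of the complex 1 rose, 0 fell and 4 did not pass (list median -0.09). Among those 4, the kinase Pik3c3 changed by -0.09, the scaffold Ambra1 by 0.21 and Becn1 itself by -0.16 (adjusted p 0.372 to 0.658). A dimmer Becn1 probe had the other sign, at 0.04.

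Vmp1, an endoplasmic reticulum protein with lipid scramblase activity needed for autophagosomes to form, read 10.38, 9.94, 10.06 and 9.85 in methanol and 9.81, 9.58, 9.58 and 9.57 in saline. The lowest methanol array was just above the highest saline array, saline replicate 1. It rose by 0.42 (SE 0.11, limma adjusted p = 0.0325), while its 4 other probes, at -0.12 to 0.36, did not pass. The call was lost with median scaling, without the variance trend and without methanol replicate 1 or 3 or saline replicate 2, 3 or 4 (0.32 to 0.43, adjusted p 0.0782 to 0.190). Of 9 tested genes that supply membrane or bind the lipid PI3P, 1 rose, 0 fell and 8 did not pass (median 0.115). The brightest of the others were the PI3P-binding proteins Wipi2 (0.17), Wdr45 (0.28) and Wdr45b (-0.18), with adjusted p from 0.128 to 0.400. Dimmer tested probes of Wdr45b had the other sign, at 0.16 and 0.02.

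No gene passed in the other autophagy lists. In the Ulk1 initiation complex, 4 genes were tested, with changes from -0.01 to 0.19 (median 0.055), and the kinases Ulk1 and Ulk2 and their partner Atg13 had 0.19, 0.05 and 0.06 (adjusted p 0.282 to 0.802). Of the cargo receptors, which tie freight to Atg8 proteins, 9 were tested (median -0.0315), and Sqstm1, the p62 protein, changed by 0.05, Bnip3l, a receptor for mitochondria, by -0.03 and Tax1bp1 by 0.08 (adjusted p 0.611 to 0.865). Of the genes for fusion with lysosomes 7 were tested (median -0.00102), and Rab7, a GTPase of late endosomes, changed by 0.07, the adaptor Plekhm1 by 0.15 and the SNARE protein Snap29 by 0.01 (adjusted p 0.324 to 0.968). Among transcription factors and genes of the kinase complex mTORC1, which restrains autophagy, 8 were tested (median 0.0726). The changes were 0.03 for the GTPase Rheb, -0.02 for its inhibitor Tsc2 and 0.12 for the mTOR partner Mlst8 (adjusted p 0.370 to 0.913). Dimmer tested probes had the other sign for Rab7 (-0.15 and -0.04) and Tsc2 (0.06), and differed in sign for Mlst8 (-0.03 and 0.13).

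**Figure D4:**
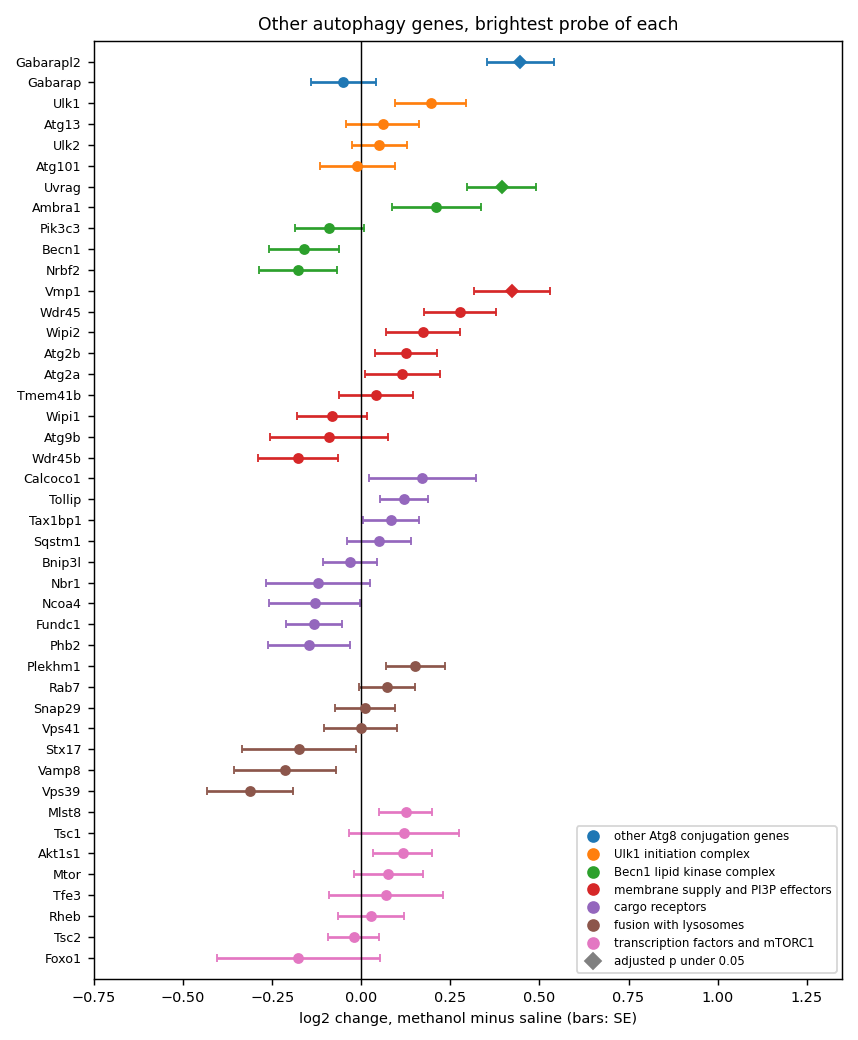
Log2 change, methanol minus saline, of the 44 other autophagy genes tested, each by its brightest probe, with SE bars from limma, coloured by list and with diamonds for an adjusted p under 0.05. Gabarapl2, Uvrag and Vmp1 lie at 0.45, 0.39 and 0.42, and the remaining 41 between -0.31 and 0.28.

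The enzymes that conjugate UFM1, another ubiquitin-like protein, served for comparison. Of 6 such genes 4 were tested and 0 passed (median -0.0807). The changes were -0.07 for the conjugating enzyme Ufc1, 0.15 for the protease Ufsp2 and -0.15 for the ligase Ufl1 (adjusted p 0.422 to 0.698). Dimmer tested probes of Ufsp2 differed in sign (-0.23 and 0.07). The promoters of Gabarapl2, Uvrag and Vmp1 held neither the E-box nor the forkhead core.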

How the data were processed

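Total RNA of mouse brain from 4 methanol and 4 saline samples was hybridised to Illumina MouseRef-8 arrays. The authors used GenomeStudio, and normalized by cubic spline, per their methods. Each array had its intensity deposited in 2 tables. One, titled as not normalized, held identical sorted values in every column, that is, intensity already normalized, beside a detection p-value per probe and array, which the authors deposited with it. Identical sorted values are what quantile normalization gives, and whether the stated cubic spline made this table was not settled here. The other held un-normalized intensity and was used here.

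Normexp background correction, driven by those detection p-values (offset 16), was followed by quantile normalization and log2 (limma 3.58.1, R 4.3.3). Quantile normalization holds every array to the same distribution, and background correction widens the changes of dim probes. Probes detected (p under 0.05) on at least 4 of 8 arrays entered lmFit and eBayes with a variance trend, two-sided, with Benjamini-Hochberg adjustment over 11938 probes and a threshold of 0.05. A p-value here covers only the spread between the 8 arrays, which may be technical, and so few arrays limit the precision. The fit was also run on simulated data in which 200 probes were changed by 1 on the log2 scale. That run does not bear on smaller changes, such as those called for Gabarapl2, Uvrag and Vmp1.

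Members, lists and motifs were chosen with earlier results of these data known. All member probes are given. From the other lists, called genes and up to 3 further genes of the highest mean log2 intensity are named, with Tfeb and 5 genes nearest to Atg3. From the checks only genes with a called probe are named, beside the sex genes as counts and levels and Ttr as levels. Gene symbols came from the platform annotation (23978 probes with 1 symbol, 0 with several, 1719 not listed); 23962 were found in the RefSeq gene table and 0 changed. RefSeq promoters were used for 7 of 10 members. Sequences on 1 chromosome were left out by rule for members and called genes, and not from the background, so a member without a sequence here may have one. Alternatives covered background, scaling, filter, variance model, the replicate number as a block and each array left out.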

Additional observations from a re-analysis of the deposited data

Results flagged for a closer look

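Of 30 groups of 4 arrays checked, 1 had an array far from the others: for the Vmp1 probe, saline replicate 1 was the highest at a log2 intensity of 9.805, where the next was 9.577 and the lowest 9.573. The gap was 0.983 of the group's range, above the critical value of Dixon's test for 4 values. Chance flags about 1 in 20 groups.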

How the results depend on the processing

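Atg3 probe 2 stayed lower and past the threshold in all 17 alternatives (log2 change -1.35 to -0.75), and the count of member probes called was 1 in each. Since the family was chosen for the low Atg3 value on these same 8 arrays, this shows only that its direction and call did not change with these settings, and is no independent support for it. The signs of Atg10 probe 1, Atg12 and Atg5 probe 2, all near 0, turned in 4, 3 and 2 alternatives without a call in any. With median scaling, 180 probes were higher and 180 lower across the array, and 0 other autophagy genes were higher; without the variance trend 1 was. With single arrays left out, the counts ranged from 203 to 465 higher and from 145 to 427 lower probes, and from 1 to 3 other autophagy genes, with 1 without methanol replicate 1 or saline replicate 3 or 4. Higher and lower probes numbered 207 and 191 without methanol replicate 1, 246 and 186 without saline replicate 2, 215 and 145 without saline replicate 3 and 203 and 151 without saline replicate 4, and 231 and 239 probes were higher without methanol replicates 3 and 4. Deviations from the group means of samples with the same replicate number correlated at 0.185, -0.109, -0.013 and 0.251 for replicates 1 to 4. Against other numbers the ranges were -0.168 to 0.0438, -0.186 to 0.196, -0.139 to 0.1 and -0.224 to 0.00873. Replicates 1 and 4 lay above their ranges and replicates 2 and 3 within them. The same-number values were not all above 0, so the numbers were not taken to pair the samples, and whether they do was not settled. With the replicate block 476 probes were higher and 483 lower, 3 other autophagy genes were higher, and Atg3 probe 2 changed by -1.195. The cause of these shifts in count was not tested. Of the members, 2 Atg3 probes and Atg4b were too dim to be measured here.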
